A study of Mus musculus with 6 samples.

Results

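The circadian clock genes *Arntl*, *Clock*, *Per1*, *Per2*, *Per3*, *Cry1*, *Cry2*, *Nr1d1*, *Nr1d2* and *Dbp* were examined in whole adult mouse brain. They were selected by gene symbol, and all 10 were found among the 37310 genes of the count table. One group was *Adar1*E861A/E861A *Ifih1*-/-, carrying on both alleles a substitution that abolishes editing by the adenosine deaminase ADAR1, and is called E861A here. The other was *Adar1*+/+ *Ifih1*-/-, called WT. Mice of both groups therefore lacked MDA5, the double-stranded RNA sensor encoded by *Ifih1*, and were 12-week-old males on a C57BL/6 background, with 3 libraries per genotype. Both alleles were germline, so no cell type was targeted. The time of day at which brains were collected was not given in the sources used here.

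The mammalian clock is a feedback loop of transcription. CLOCK and BMAL1 (encoded by *Arntl*) bind E-box sequences as a pair and activate the *Per* and *Cry* genes, whose proteins return to the nucleus and repress that activation. The nuclear receptors REV-ERB alpha and REV-ERB beta (*Nr1d1* and *Nr1d2*) repress *Arntl* and form a stabilising loop, and the output factor DBP activates genes through D-box sequences. The master pacemaker lies in the suprachiasmatic nucleus of the hypothalamus, but most brain regions run the same loop. Transcripts of the positive factor *Arntl* and of outputs such as *Dbp* peak at opposite times of day.

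The promoters of *Per1*, *Per3* and *Cry1* are shown because they carry the clock's sequence elements close to the start of transcription, and because *Per1* and *Per3* had the lowest p-values of the clock genes in the genotype comparison. Each run is the 250 bases before an annotated RefSeq start (GRCm38.p6), 5′ to 3′ on the gene's strand, with the matched motif in capitals. The *Per1* window was chr11:69098699-69098948 on the plus strand, the *Per3* window chr4:151044666-151044915 on the minus strand and the *Cry1* window chr10:85185055-85185304 on the minus strand.

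Per1: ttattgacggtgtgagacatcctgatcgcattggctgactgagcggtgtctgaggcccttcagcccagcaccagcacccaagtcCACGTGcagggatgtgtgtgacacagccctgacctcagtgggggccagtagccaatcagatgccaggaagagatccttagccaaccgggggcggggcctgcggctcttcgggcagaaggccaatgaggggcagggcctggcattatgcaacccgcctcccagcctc
Per3: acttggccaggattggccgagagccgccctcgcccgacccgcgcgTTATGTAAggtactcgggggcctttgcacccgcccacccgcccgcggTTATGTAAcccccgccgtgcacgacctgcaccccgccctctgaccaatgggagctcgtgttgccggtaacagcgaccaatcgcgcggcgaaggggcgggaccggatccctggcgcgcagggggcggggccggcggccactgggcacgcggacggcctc
Cry1: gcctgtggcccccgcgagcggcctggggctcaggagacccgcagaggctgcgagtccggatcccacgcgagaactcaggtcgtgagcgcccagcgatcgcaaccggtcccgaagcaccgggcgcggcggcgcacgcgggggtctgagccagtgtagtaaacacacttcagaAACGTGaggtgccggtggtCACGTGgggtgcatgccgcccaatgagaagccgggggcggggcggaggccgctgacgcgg

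The *Per1* window held 1 E-box (CACGTG), which began 166 bases before the start. The *Per3* window held 2 D-boxes (TTATGTAA), beginning 205 and 158 bases before the start. The *Cry1* window held 1 E-box at 60 bases and 1 E'-box variant (AACGTG) at 79 bases before the start. Matches were sought on both strands for the E-box, the E'-box (AACGTG), the D-box (TTATGTAA and also TTACGTAA), the element bound by ROR and REV-ERB receptors (RORE, with the letters TAGGTCA and also TGGGTCA) and the cyclic AMP response element (CRE, TGACGTCA). The motifs do not contain one another. RefSeq entries were matched for 9 of the 10 genes (all but *Per2*), with 13 start sites in all. *Cry2* and *Nr1d1* each held 1 E'-box, at 166 and 28 bases before the start, and the windows of *Arntl*, *Clock*, *Nr1d2* and *Dbp* and the downstream *Per1* start held no match. No window held a RORE or a CRE. Over all 32851 windows of this length, 6.02% held an E-box, 3.85% an E'-box, 0.931% a D-box, 5.38% a RORE and 1.55% a CRE. A match describes the window and does not show binding, and no match says only that these letters are not in this window.

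The 6 libraries held 26853488 to 38076753 counts, and mitochondrial genes took 11.02% to 13.8% of them. One library stood apart. E861A replicate 1 held pituitary hormone transcripts, with a summed level of 439 CPM (a gene's counts divided by its library's total and scaled to a common size) over 6 of 7 matched pituitary markers against 1.41 to 3.53 CPM in the other libraries. Without that library 0 of the 10 clock genes were called, as with it, and the log2 fold changes of *Per1* and *Per3* were -0.21 and 0.15. Testing was limited to the 13649 genes that reached 2 CPM in all libraries of at least one genotype, and the 10 clock genes were all among them. In whole tissue, fewer cells of a type and less RNA per cell cannot be told apart.

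No clock gene passed the test between genotypes. By edgeR's quasi-likelihood test, 0 of 10 had an adjusted p under 0.05, against 0.506% of all genes tested (69 of 13649). Their median log2 fold change was -0.0010, beside -0.0010 for all genes tested, with 5 genes above 0 and 5 below. At an unadjusted p under 0.05 there were 2 of 10, *Per1* and *Per3*, where 9.01% of all genes reached that level, and they lay in opposite directions. DESeq2 and limma-voom also called 0 of 10. The genotypes overlapped in CPM for all 10 genes, whereas 13.8% of all genes did not overlap.

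**Figure D1:**
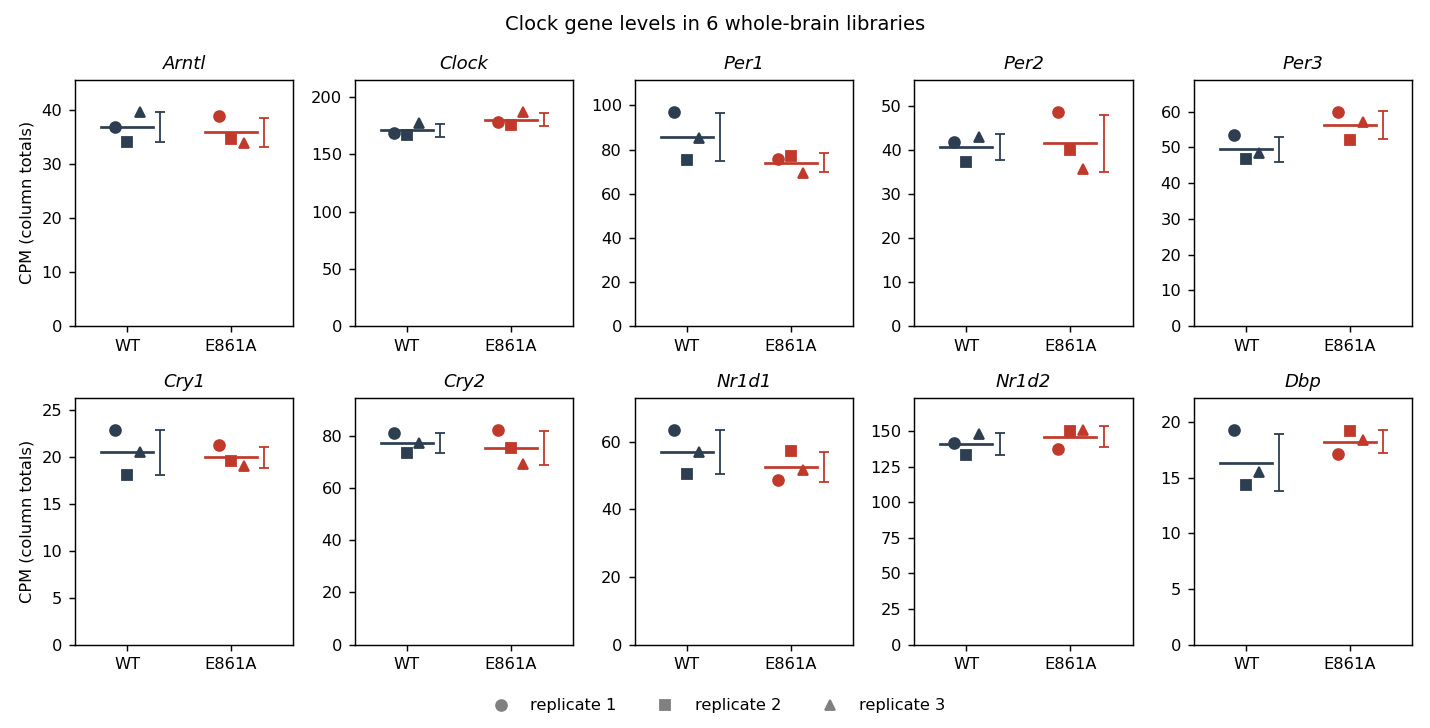
CPM from column totals (vertical axis, from 0) of each clock gene in the 3 WT and 3 E861A libraries. Horizontal lines are means, error bars are SD (n = 3) and symbols mark the replicate number. The genotypes overlap in each panel, and WT replicate 2 (square) is the lowest WT library throughout.

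Neither positive factor passed the test. *Arntl* (ENSMUSG00000055116; chromosome 7, 120350979 to 120457636 in mm9), which encodes BMAL1, was at 37.0, 34.01 and 39.7 CPM in WT replicates 1 to 3 and at 38.9, 34.7 and 33.999 CPM in E861A replicates 1 to 3. Both genotypes thus spanned almost the same range. The log2 fold change was -0.04 ± 0.06 (SE), with an adjusted p of 0.886. *Clock* (ENSMUSG00000029238; chromosome 5, 76639992 to 76733817), the partner of BMAL1, was at 169, 167 and 177 CPM in WT and 178, 176 and 187 CPM in E861A. WT replicate 3 lay between the E861A libraries, and E861A was the higher in 3 of 3 same-numbered pairs. Its log2 fold change was 0.08 ± 0.05, with an adjusted p of 0.640.

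The 3 period genes encode repressors of the loop, and none passed the test. *Per1* (ENSMUSG00000020893; chromosome 11, 68908719 to 68923462), the period gene that is also induced rapidly by neuronal signalling, was at 97.1, 75.3 and 85.1 CPM in WT and 75.9, 77.1 and 69.3 CPM in E861A. WT replicate 2 lay within the E861A range, and the other WT libraries lay above it. The mean was 85.8 ± 10.9 CPM (SD, n = 3) in WT and 74.1 ± 4.17 CPM in E861A. The log2 fold change was -0.21 ± 0.07 (95% interval -0.36 to -0.05), with an unadjusted p of 0.0119 and an adjusted p of 0.395 by edgeR. Without WT replicate 1, its highest library, the log2 fold change was -0.12 with an adjusted p of 0.777. Without WT replicate 2 it was -0.285 with an adjusted p of 0.0534. Without a filter on low counts *Per1* was the 1 clock gene called (adjusted p 0.0172), where 1.28% of 29282 genes were called.

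*Per3* (ENSMUSG00000028957; chromosome 4, 150377761 to 150418774) was at 53.4, 46.7 and 48.3 CPM in WT and 60.0, 52.2 and 57.0 CPM in E861A. Only WT replicate 1 reached the E861A range, where it exceeded E861A replicate 2. The means were 49.5 ± 3.50 CPM in WT and 56.4 ± 3.92 CPM in E861A (SD, n = 3), a log2 fold change of 0.19 ± 0.06 (95% interval 0.06 to 0.31). The unadjusted p was 0.0064 and the adjusted p 0.321. With TMM-scaled CPM, *Per3* was the 1 clock gene whose genotypes did not overlap, where 14.2% of all genes did not overlap. *Per2* (ENSMUSG00000055866; chromosome 1, 93312561 to 93355907) was at 41.7, 37.3 and 42.9 CPM in WT and 48.6, 40.0 and 35.8 CPM in E861A. The E861A libraries enclosed all WT values, and E861A held both the highest and the lowest library. Its log2 fold change was 0.03 ± 0.08 with an adjusted p of 0.941, and the value was -0.08 without E861A replicate 1, its highest library.

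The cryptochromes, which act with the period proteins as the main repressors, had overlapping values in both genotypes. *Cry1* (ENSMUSG00000020038; chromosome 10, 84594447 to 84647799) was at 22.8, 18.1 and 20.5 CPM in WT and 21.2, 19.5 and 19.0 CPM in E861A, so the WT range enclosed the E861A values. *Cry2* (ENSMUSG00000068742; chromosome 2, 92243803 to 92274200) was at 81.2, 73.4 and 77.3 CPM in WT and 82.1, 75.2 and 69.2 CPM in E861A, where the E861A range enclosed WT. Their log2 fold changes were -0.04 ± 0.08 and -0.03 ± 0.06, with adjusted p of 0.921 and 0.897. Within libraries, log2 *Cry1* over *Cry2* (CPM, not per length) ran from -1.99 to -1.81 in WT and from -1.93 to -1.83 in E861A.

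The REV-ERB genes and *Dbp* did not pass the test either. *Nr1d1* (ENSMUSG00000020889; chromosome 11, 98629246 to 98636647) was at 63.4, 50.5 and 57.0 CPM in WT and 48.7, 57.4 and 51.6 CPM in E861A. WT replicate 1 was the highest library and E861A replicate 1 the lowest. The log2 fold change was -0.11 ± 0.08, with an adjusted p of 0.708. *Nr1d2* (ENSMUSG00000021775; chromosome 14, 19036568 to 19071641) was at 141, 133 and 148 CPM in WT and 137, 150 and 150 CPM in E861A, with WT replicates 1 and 3 inside the E861A range. Its log2 fold change was 0.05 ± 0.06, with an adjusted p of 0.807.

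*Dbp* (ENSMUSG00000059824; chromosome 7, 52960458 to 52965525), the output gene with a large daily range in many tissues, was at 19.2, 14.3 and 15.5 CPM in WT and 17.1, 19.2 and 18.4 CPM in E861A. WT replicate 1 was the highest library and the other WT libraries were the lowest. The log2 fold change was 0.16 ± 0.09 (95% interval -0.04 to 0.36), with an adjusted p of 0.640. Exons of *Dbp*, *Nr1d1* and *Cry2* overlap those of *Sphk2*, *Thra* and *D930015M05Rik* on the opposite strand over 16.7%, 8.42% and 4.67% of their exon bases. The strand setting of the counting was not given, so counts of these 3 genes are uncertain, by an amount that was not measured.

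The 95% intervals of the 10 log2 fold changes lay between -0.36 (*Per1*) and 0.36 (*Dbp*). Exact two-sided permutation tests on CPM gave p from 0.2 (*Clock* and *Per3*) to 1 (*Per2*), where 3 libraries against 3 cannot give less than 0.1. Deviations of same-numbered libraries correlated with r of 0.116 to 0.336, so differences were also read within pairs. This pairing was not tested, and the labels do not explain it. *Clock* and *Per3* were higher in E861A in 3 of 3 pairs (2 of 10 clock genes, against 18.8% of all genes), and 0 of 10 were lower in 3 of 3 pairs (against 18.0%). With the replicate number as a block, 0 of 10 were called, against 1.16% of all genes (158). The unadjusted p was then under 0.05 for 3 of 10, *Clock*, *Per1* and *Per3*, against 15.2% of all genes. *Per3* had the smallest of their adjusted p, 0.0596.

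**Figure D2:**
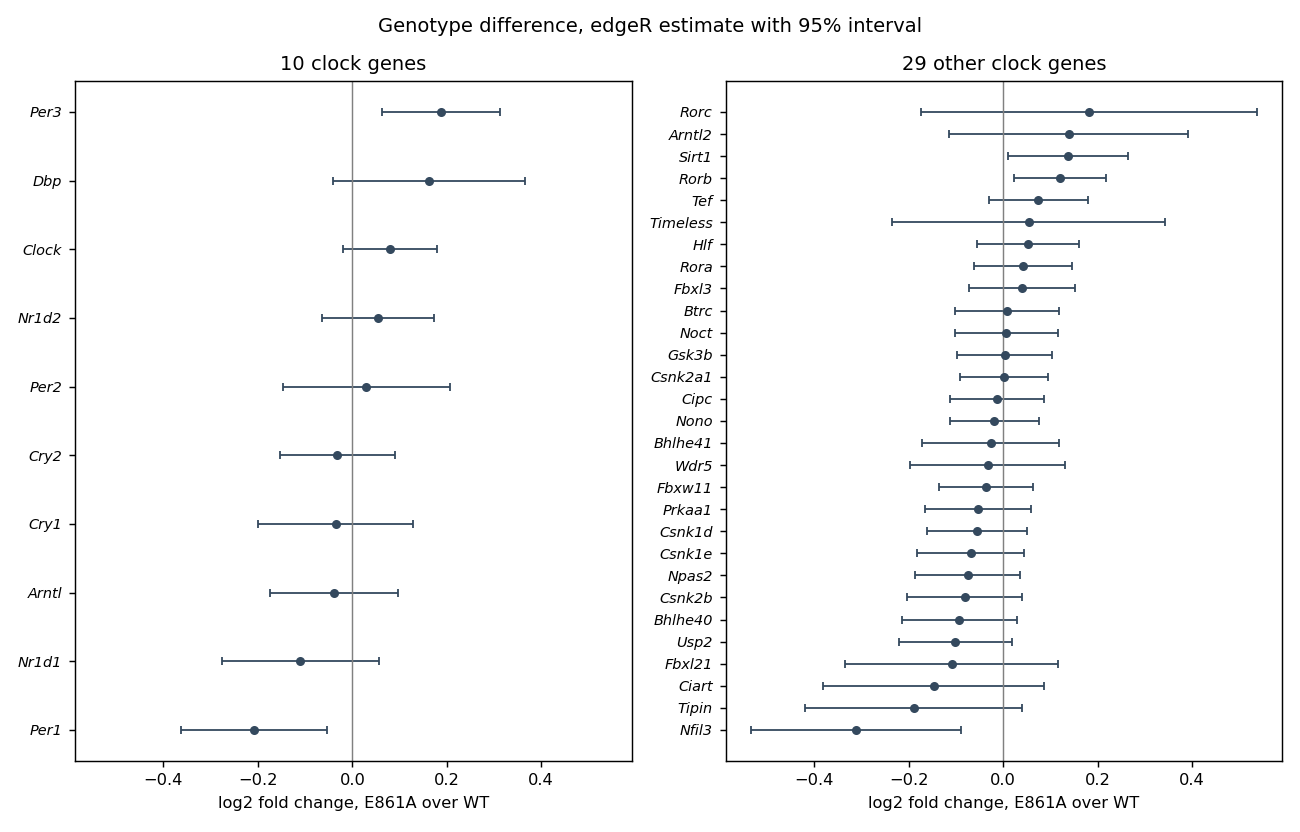
Log2 fold change of E861A over WT (horizontal axis) with its 95% interval from edgeR's quasi-likelihood fit, for the 10 clock genes (left) and 29 other clock genes (right). The intervals of *Per1* and *Nfil3* lie below 0 and those of *Per3*, *Rorb* and *Sirt1* above it, but no adjusted p was under 0.05.

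Levels were compared between genes per length, as CPM per kilobase of the union of annotated exons (mean ± SD over 6 libraries). The order depends on the exon lengths used. In CPM, *Clock* (167 to 187) exceeded *Nr1d2* (133 to 150) in each library. *Per3* (46.7 to 60.0 CPM, 9608 exon bases) likewise exceeded *Dbp* (14.3 to 19.2 CPM, 2945 exon bases). Per length, *Nr1d2* was the highest at 28.6 ± 1.45, and its libraries did not overlap those of any other clock gene. *Clock* followed at 19.9 ± 0.82 and *Nr1d1* at 17.5 ± 1.75. *Per1* at 14.2 ± 1.74, *Arntl* at 12.4 ± 0.86 and *Cry2* at 12.1 ± 0.77 came next, and from *Clock* to *Cry2* the ranges of neighbouring genes overlapped. A gap separated *Cry2* from the lower genes. *Per2* was at 7.03 ± 0.78, *Cry1* at 6.70 ± 0.56, *Dbp* at 5.87 ± 0.69 and *Per3* at 5.51 ± 0.52, again with overlap between neighbours. *Arntl* exceeded *Cry2* in 4 of 6 libraries and *Per2* exceeded *Cry1* in 4 of 6, so these neighbours were not separated. Within each paralogous set, *Nr1d2* exceeded *Nr1d1*, *Cry2* exceeded *Cry1* and *Per1* exceeded *Per2* and *Per3* without overlap.

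**Figure D3:**
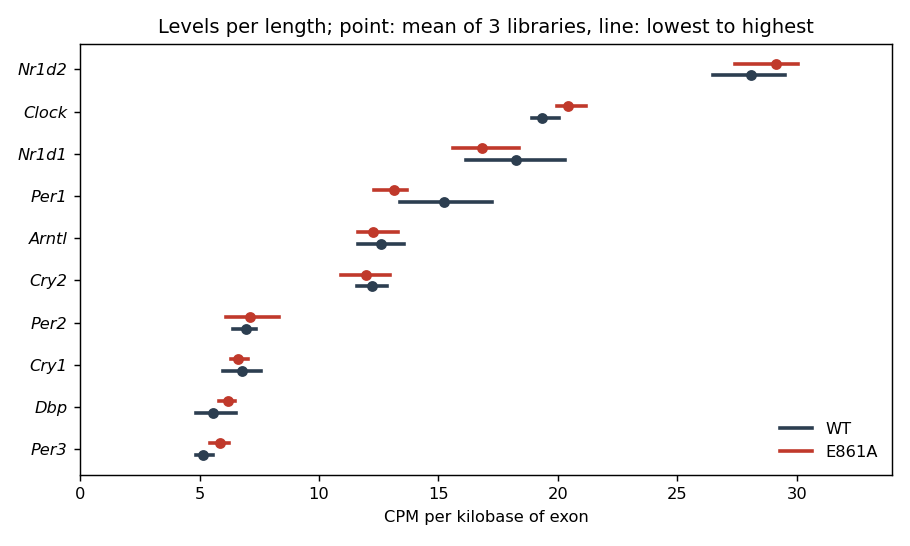
CPM per kilobase of exon (horizontal axis) for each clock gene in WT and E861A. Points are means of 3 libraries and lines run from the lowest to the highest library. *Nr1d2* is apart from the rest, and *Per2*, *Cry1*, *Dbp* and *Per3* form the lower end below *Cry2*.

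Of the 10 clock genes, 8 varied more between mice of one genotype than the median tested gene, and *Nr1d2* and *Clock* varied less. The within-genotype SD of log2 CPM had a median of 0.118 over the 10 genes, against 0.0819 over all genes tested and 0.0663 over the 6892 tested genes whose mean CPM lay in the range of the clock genes. *Per2* and *Dbp* varied most, with SD of 0.174 and 0.161, larger than or equal to those of 90.2% and 87.9% of tested genes. *Nr1d2* had an SD of 0.0756 (44.5 percentile) and *Clock* varied least, with an SD of 0.0457 (15.1 percentile). The coefficient of variation reached 15.8% for *Per2* in E861A and 15.7% for *Dbp* in WT, where counting error alone would give 2.80% and 4.09%. The highest library exceeded the lowest by 1.12 times for *Clock* and by up to 1.40 times for *Per1*.

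Within WT, the clock genes shared their lowest library. WT replicate 2 was the lowest WT library for 10 of 10 clock genes, and for 9 of 10 with TMM-scaled CPM, where *Clock* was the exception. Over all genes tested it was the lowest in 46.5% (35.4% with TMM-scaled CPM). In CPM it was also the lowest WT library for the 16 activity-induced genes described below, except *Egr3* and *Dusp1*. The shared lowest library was therefore not particular to the clock genes. WT replicate 1 was the highest WT library for 6 of 10, against 44.3% of all genes tested. It exceeded WT replicate 2 by 1.34 times for *Dbp*, 1.29 times for *Per1*, 1.26 times for *Cry1* and 1.25 times for *Nr1d1*, but only 1.01 times for *Clock*. In E861A the lowest library was replicate 3 for 5 genes, replicate 1 for 3 and replicate 2 for 2, against 39.0%, 21.9% and 39.1% of all genes tested. Replicate 1, the library with pituitary transcripts, was the highest E861A library for 5 of 10, against 46.8% of all genes tested. These were *Arntl*, *Per2*, *Per3*, *Cry1* and *Cry2*, while *Nr1d1*, *Nr1d2* and *Dbp* were lowest in it. No cause of these differences between mice was tested.

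**Figure D4:**
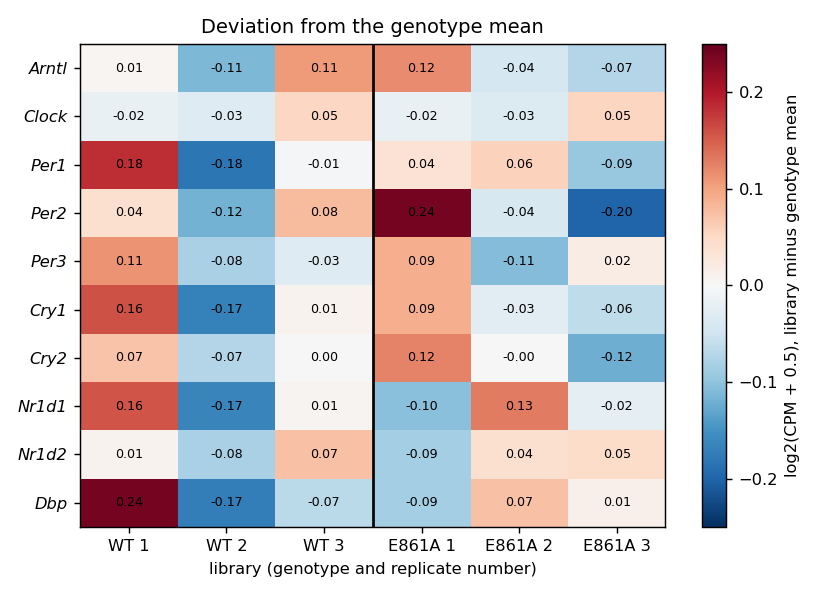
Log2(CPM + 0.5) of each clock gene (rows) in each library (columns) minus the mean of its genotype, in colour and printed in each cell. The column of WT replicate 2 is below 0 in each row, and the E861A columns differ in sign between genes.

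Opposite-phase genes were compared within libraries as log2 ratios of CPM, with no test. *Dbp* over *Arntl* was -0.92, -1.22 and -1.33 in WT and -1.16, -0.84 and -0.87 in E861A, so the genotypes overlapped through replicate 1 of each. *Per3* over *Arntl* was 0.53, 0.45 and 0.28 in WT and 0.62, 0.58 and 0.74 in E861A. This was the 1 of 9 ratios to *Arntl* whose genotypes did not overlap, where 7.16% of all genes gave a ratio to *Arntl* without overlap.

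Across the 6 libraries, no correlation of a clock gene with *Dbp* passed its test. Of 9 relations to *Dbp* on log2(CPM + 0.5), Pearson's r ran from -0.123 (*Arntl*) to 0.629 (*Per3*), with exact permutation p of at least 0.192 and adjusted p of at least 0.759. Spearman's rho was highest for *Nr1d1* at 0.714 (exact permutation p 0.136, adjusted p 0.755). Without WT replicates 2 and 3, the libraries farthest from the median of *Dbp*, r was 0.894 for *Nr1d1* and -0.959 for *Per3* over 4 libraries. Replicate 1 was then the only WT library, so these values cannot show what an r over 6 libraries rested on. As deviations from the genotype means, r of the 9 genes ran from -0.0835 (*Clock*) to 0.915 (*Nr1d1*). It was 0.827 for *Per1*, 0.423 for *Per3*, -0.00991 for *Arntl* and -0.00933 for *Per2*. These are given as a description since the genes share libraries, and the share of all genes at such values was not computed. Outside the clock genes, *Hells*, *Ankrd44*, *Lama2*, *Ino80dos* and *4930563E22Rik* had the highest r to *Dbp* (0.990 to 0.973) and *Polr2l*, *Tfcp2l1*, *Trip6*, *Dhrs7* and *Pramef8* the lowest (-0.986 to -0.967). With 6 libraries, 51 of 13649 genes had an r of 0.9 or more, and these likenesses are given as a description only.

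Other genes of the clock were examined from a list of 29, comprising further activators (*Npas2*, *Arntl2*), ROR receptors, D-box factors (*Tef*, *Hlf*, *Nfil3*), the repressors *Bhlhe40*, *Bhlhe41*, *Ciart* and *Cipc*, and kinases and ubiquitin ligases that act on the PER and CRY proteins. All 29 were tested and 0 were called by edgeR, with or without the replicate block, nor any by DESeq2 or limma-voom. Their median log2 fold change was -0.02, with 13 above 0 and 16 below. An unadjusted p under 0.05 was reached by 3 of 29, against 9.01% of all genes. *Nfil3*, a repressor that competes for the D-box, was at 10.5 ± 0.75 CPM in WT and 8.43 ± 1.35 CPM in E861A (SD, n = 3), a log2 fold change of -0.31 ± 0.10 with an adjusted p of 0.371. *Rorb*, a nuclear receptor of the ROR family, was at 113 ± 2.65 and 122 ± 1.31 CPM, a log2 fold change of 0.12 ± 0.05 with an adjusted p of 0.462. *Sirt1*, a deacetylase, gave 0.14 ± 0.06 with an adjusted p of 0.525. The D-box activators *Tef* and *Hlf* gave 0.07 and 0.05 on the log2 scale. WT replicate 2 was the lowest WT library for 13 of the 29, beside 46.5% of all genes tested.

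Genes listed as markers of the pacemaker were detected at low to moderate levels, with *Nms*, *Prok2* and *Six6* below the filter. Whole-brain counts do not show which region these transcripts came from. Of 13 suprachiasmatic nucleus markers 10 were tested and edgeR called 0, with a median log2 fold change of -0.04. An unadjusted p under 0.05 was reached by 1 of 10, against 9.01% of all genes. *Vip*, a peptide of suprachiasmatic and cortical neurons, was at 12.4 CPM in WT and 15.6 CPM in E861A, a log2 fold change of 0.32 ± 0.07 with an adjusted p of 0.1. With the replicate block it was called (adjusted p 0.0479), where 1.16% of all genes were called. *Avp*, the vasopressin gene, had a log2 fold change of -0.29 ± 0.14 with an adjusted p of 0.566. Of 4 matched pineal markers only *Otx2* was tested, with a log2 fold change of -0.04 and an adjusted p of 0.954.

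*Per1* is also an immediate early gene, so genes induced by neuronal activity were set beside it. Of 16 tested, 15 had a negative log2 fold change, 6 had an unadjusted p under 0.05 (9.01% over all genes) and the median was -0.20, beside -0.21 for *Per1* and -0.0010 for all genes. Only *Fosb* was called, where 0.506% of all genes were called. *Fosb*, a subunit of the AP-1 transcription factor, was at 19.4, 18.9 and 22.3 CPM in WT and 12.9, 15.1 and 14.8 CPM in E861A, a log2 fold change of -0.50 ± 0.09 with an adjusted p of 0.0137. Its genotypes did not overlap in CPM, which held for 4 of the 16 genes, all lower in E861A (13.8% over all genes). *Fosl2* gave -0.32 ± 0.08 with an adjusted p of 0.140. Summed over the 16 genes, the level was 898, 687 and 808 CPM in WT replicates 1 to 3 and 696, 731 and 718 CPM in E861A, with WT replicate 1 the highest library and WT replicate 2 the lowest. *Per1* was also highest in WT replicate 1, but lowest in E861A replicate 3. Their part in the *Per1* values was not tested.

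Glucocorticoid-induced genes were examined because *Per1* carries a known glucocorticoid response. Of 15 tested, 14 had a negative log2 fold change, with a median of -0.08. By edgeR 0 were called, with 5 at an unadjusted p under 0.05 (9.01% over all genes). The genotypes did not overlap in CPM for 3 of 15 (13.8% over all genes). WT libraries disagreed, since the summed level was 662, 903 and 838 CPM in WT replicates 1 to 3 and 720, 777 and 694 CPM in E861A, so WT replicate 1 was the lowest of the 6 libraries. *Nfkbia*, an inhibitor of NF-κB, gave -0.40 ± 0.11 with an adjusted p of 0.253. It was called with the replicate block (adjusted p 0.0163), where 1.16% of all genes were called. *Plin4*, a lipid droplet protein, gave -0.56 ± 0.17 with an adjusted p of 0.290. The 9 temperature-responsive genes tested had a median of 0.06, with 0 called and 2 at an unadjusted p under 0.05 (9.01% over all genes). Among them was the heat shock gene *Hspa1b*, whose near-identical copy *Hspa1a* makes its count uncertain. *Hspa1b* was at 5.28, 4.10 and 7.23 CPM in WT and 16.2, 9.01 and 5.14 CPM in E861A, with an adjusted p of 0.373. E861A replicate 1, the library with pituitary transcripts, was the highest and E861A replicate 3 lay within the WT range. *Dnajb1* gave 0.22 ± 0.09 with an adjusted p of 0.495.

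No cell type marker passed the edgeR test without the block. All 7 neuron, 6 astrocyte, 6 oligodendrocyte and 6 microglia markers were tested, with medians of -0.05, 0.03, 0.0032 and -0.06. An unadjusted p under 0.05 was reached by 2, 1, 0 and 0 of them. Over all genes the share at that level was 9.01%, which also stands beside the counts below. The 5 endothelial markers had a median of -0.32, and 4 had an unadjusted p under 0.05 (smallest adjusted p 0.0817, *Flt1*). The 7 choroid plexus markers had a median of -0.23 with 3 at an unadjusted p under 0.05 (smallest adjusted p 0.124, *Ttr*), and the 3 matched blood markers -0.48 with 0 (smallest adjusted p 0.565). Summed endothelial levels were 164 to 191 CPM in WT and 129 to 158 CPM in E861A, and choroid plexus levels 809 to 825 and 516 to 729 CPM. The lowest value of both was E861A replicate 1, the library with pituitary transcripts. The other E861A libraries were at 141 and 158 CPM for endothelial and 686 and 729 CPM for choroid plexus markers, sums still below WT. Most of the choroid plexus sum came from *Ttr* (mean 355 CPM in WT, 248 in E861A) and *Enpp2* (412 and 352 CPM). Genotypes did not overlap in CPM for 3 of 7 choroid plexus and 2 of 5 endothelial markers, all lower in E861A (13.8% over all genes). *Kcnj13*, of the choroid plexus list, gave 0.12. With the replicate block *Ttr* (0.0241), the endothelial glucose transporter *Slc2a1* (0.0147) and the astrocyte glutamate transporter *Slc1a2* (0.0374) had adjusted p under 0.05. That fit called 1.16% of all genes. The part of these markers in the clock gene values was not tested.

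**Figure D5:**
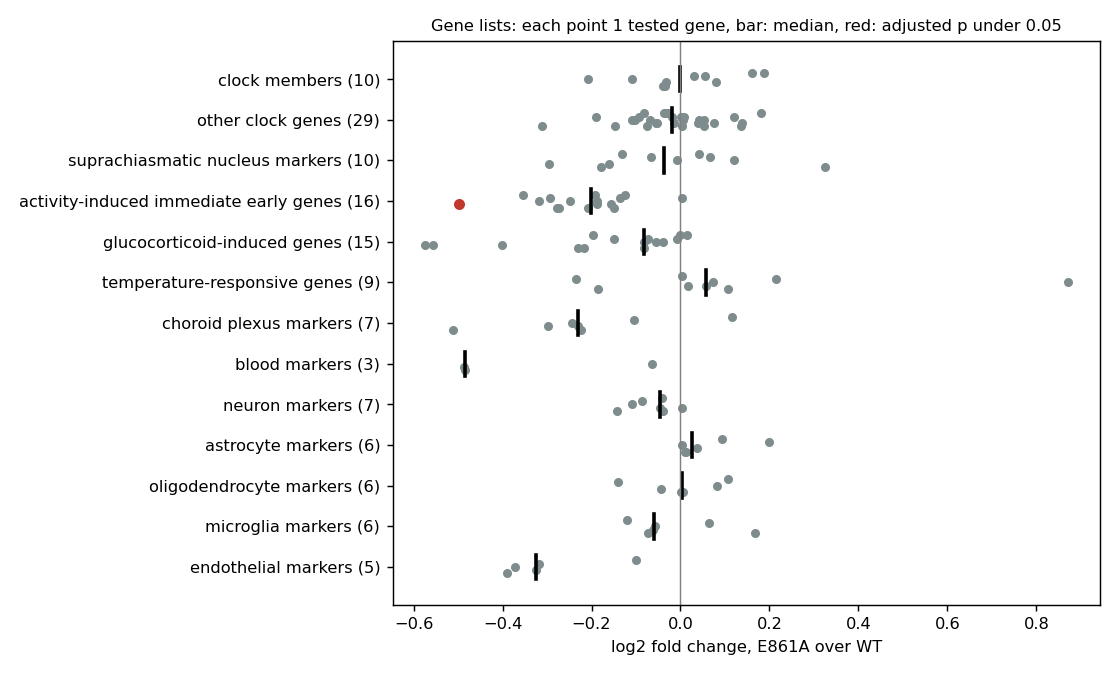
Log2 fold change of E861A over WT (horizontal axis) for each tested gene of each list except the pineal markers, with the number of tested genes in brackets. Bars are medians and the red point, *Fosb*, is the 1 gene with an adjusted p under 0.05. The clock genes lie on both sides of 0, whereas 15 of 16 activity-induced and 14 of 15 glucocorticoid-induced genes lie below it. So do 6 of 7 choroid plexus, 6 of 7 neuron, 5 of 5 endothelial and 3 of 3 blood markers. All 6 astrocyte markers lie above 0. For 4 of the 16 activity-induced genes the genotypes did not overlap in CPM, against 13.8% of all genes.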

How the data were processed

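Total RNA from whole brain was depleted of ribosomal RNA, prepared with a stranded kit and sequenced as paired ends. The authors trimmed and aligned reads to mm9 (Trimmomatic 0.36 and STAR 2.5.2a are named in the submitters' processing notes) and deposited raw counts per gene from STAR's gene counting, 1 column per library. The strand column was not given. Deposited CPM values and the authors' edgeR comparison (fold changes and false discovery rates) were not used here. All 37310 gene identifiers matched GENCODE vM1, the source of mm9 coordinates and exon lengths.

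The clock genes and all lists were chosen with earlier results of these data known. CPM used column totals. Testing kept genes that reached 2 CPM in all 3 libraries of at least one genotype, and used R 4.3.3 and edgeR 4.0.16 (TMM factors 0.986 to 1.02, quasi-likelihood test, Benjamini-Hochberg over 13649 genes, threshold 0.05). The SE was the log2 fold change over the square root of F. The procedure was checked on simulated counts with a constant dispersion and planted changes larger than those of the clock genes. That check does not give the power for changes as small as theirs. Depth was 26853488 to 38076753 counts per library, and counting intervals cover counting error only.

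The sample titles share replicate numbers between genotypes. Deviations from the genotype means correlated between same-numbered libraries with r of 0.225, 0.336 and 0.116, and between other libraries from -0.259 to 0.0505. These deviations were taken on CPM of the same data as the fits, and no test of the pairing was run. TMM factors also went with the number for replicates 1 (1.02 and 1.013) and 2 (0.9887 and 0.9857). Nothing in the labels says what the numbers share, so results by pair or block are given as an alternative only. Genes named are the 10 clock genes, those of each list with an adjusted p under 0.05 or the smallest adjusted p (up to 3 for other clock genes, 2 for the rest), and the 5 genes at each end of correlation with *Dbp*. *Tef*, *Hlf*, *Enpp2*, *Kcnj13*, *Egr3* and *Dusp1* were named after their values were seen. Alternatives comprised DESeq2 1.42.0, limma-voom (limma 3.58.1), the likelihood ratio test, other size factors and filters, thinning, the replicate block and omission of each library. The comparison of library order, ratios to *Arntl* and overlap after TMM scaling were chosen after the data were seen.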

Additional observations from a re-analysis of the deposited data

How the results depend on the processing

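The count of clock genes called was 0 in each alternative except the fit without a filter on low counts, where it was 1 (*Per1*), and the count of other clock genes called was 0 throughout. With TMM-scaled CPM, chosen after the data were seen, 1 clock gene (*Per3*) did not overlap between genotypes, against 0 with column totals. Calls over all genes moved from 69 to 139 with the likelihood ratio test, 376 without a filter, 110 with filterByExpr, 42 when 2 CPM was required in each of the 6 libraries and 158 with the replicate block, and ran from 42 to 113 when each library was omitted. The lowest was without E861A replicate 3, and 113 and 108 were without E861A replicate 2 and WT replicate 2. Fewer or more genes were tested under the filters. For the other counts the cause was not tested. The median of the clock genes ran from -0.0585 to 0.0425.

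Of 160 results for single clock genes, 154 kept direction and side of the threshold, 1 became called and 5 changed sign. Those 5 came from omitted libraries. *Arntl* ran from -0.087 to 0.0149 over the omissions, *Per2* from -0.0836 to 0.116, *Cry1* from -0.108 to 0.0421 and *Cry2* from -0.0824 to 0.0196. *Per1* ran from -0.285 to -0.118 and *Per3* from 0.154 to 0.239. The replicate block changed no call among the clock genes.

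Correlations with *Dbp* changed sign for *Clock* (-0.0835 as deviations from genotype means, -0.425 without 2 libraries), *Per2* (-0.0995 with TMM scaling, -0.00933 as deviations, -0.595 without 2 libraries), *Per3* (-0.959 without 2 libraries) and *Cry2* (-0.0142 with TMM scaling, -0.231 without 2 libraries). Mean CPM levels of all 10 genes moved by less than 1 SD with TMM scaling. There were 3 mice per genotype, and their collection time was not given.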
